A study of Mus musculus with 8 samples.

Results

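The circadian clock core genes were followed in outer medullary collecting ducts of mice on 2 salt diets. They were taken by symbol from the deposited tables and comprised Arntl, Clock, Per1, Per2, Per3, Cry1, Cry2, Nr1d1, Nr1d2 and Dbp, so 10 of the 55291 gene symbols measured. The ducts came from C57BL/6J mice, an inbred strain described as wild type, and no transgene or deletion is named in the labels. The 4 control mice had a normal-salt diet of 0.3% and the 4 others a high-salt diet of 3%, each for 3 days. Each library was RNA from 100 to 120 tubules dissected from the liberase-digested kidneys of 1 mouse. Age, sex and the hour at which tissue was taken are not stated in the labels. The numbers of the data columns are not those of the sample titles, so each library is called by its diet and the number of its column (normal salt 1, 2, 3 and 6, high salt 2, 3, 4 and 6).

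The mammalian clock is a feedback loop of transcription. BMAL1, the product of Arntl, pairs with CLOCK or NPAS2 and activates genes that carry E-boxes, among them the Per and Cry genes, Nr1d1, Nr1d2 and Dbp. PER and CRY proteins return to the nucleus and repress that pair, while REV-ERB alpha and beta, made from Nr1d1 and Nr1d2, repress Arntl through ROR elements. Over the day Arntl and Npas2 therefore run in antiphase to Dbp and Nr1d1 in peripheral tissues. DBP and its relatives TEF and HLF bind D-boxes, which are also found at Per genes. In the kidney the clock is known to act on sodium and water transport genes, including the sodium channel subunit gene Scnn1a.

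As examples, 3 promoter stretches that carry clock motifs are shown, from genes that varied with Dbp over the libraries. Each stretch is the 250 bases before a RefSeq start site on GRCm38.p6, written 5′ to 3′ on the gene's strand. The stretches come from Per3 (chr4:151044666-151044915, minus strand), Nr1d1 (chr11:98775378-98775627, minus strand) and Tef (chr15:81811164-81811413, plus strand), and no GENCODE exon lies in them. Capitals mark the motif matches: the D-box TTATGTAA in Per3, the E-box-like CACGTT (here on the other strand) in Nr1d1 and the E-box CACGTG in Tef.
Per3: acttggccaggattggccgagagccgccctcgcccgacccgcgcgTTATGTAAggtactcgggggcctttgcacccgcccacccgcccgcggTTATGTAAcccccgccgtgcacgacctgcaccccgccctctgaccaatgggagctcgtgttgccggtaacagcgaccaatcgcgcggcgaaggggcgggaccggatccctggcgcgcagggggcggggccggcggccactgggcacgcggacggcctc
Nr1d1: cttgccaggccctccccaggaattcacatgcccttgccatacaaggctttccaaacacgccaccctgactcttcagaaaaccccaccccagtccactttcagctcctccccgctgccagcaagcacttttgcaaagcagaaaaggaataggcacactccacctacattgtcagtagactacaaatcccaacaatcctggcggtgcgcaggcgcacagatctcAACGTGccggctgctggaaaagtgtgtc
Tef: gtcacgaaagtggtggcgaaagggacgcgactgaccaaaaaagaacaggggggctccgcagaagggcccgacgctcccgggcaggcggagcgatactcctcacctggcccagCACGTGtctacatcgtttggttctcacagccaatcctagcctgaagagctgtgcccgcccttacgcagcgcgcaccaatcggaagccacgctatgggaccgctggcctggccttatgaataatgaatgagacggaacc

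Entries were found for 9 members with 13 start sites in all. Per2 had none. Both strands were searched for the E-box CACGTG and for the E-box-like motif CACGTT. The D-box was searched as TTATGTAA or TTACGTAA. The ROR element was searched as TAGGTCA or, with another base at its second position, as TGGGTCA. The cyclic AMP element was searched as TGACGTCA, and the palindromic glucocorticoid element was searched as well. CACGTG was present in 2 members (Per1 and Cry1), against 6.02% of all 32851 promoters. CACGTT was present in 3 (Cry1, Cry2 and Nr1d1), against 3.85%. A D-box was present in 1 member, Per3, with 2 copies starting 205 and 158 bases before the start, against 0.931% of promoters. The E-box in the second Tef promoter starts 138 bases before its start site, and the CACGTT match of Nr1d1 28 bases before. The other 3 motifs, held by 5.38% (ROR), 1.55% (cyclic AMP) and 0.00913% (glucocorticoid) of promoters, had no match in the members' windows. The windows of Arntl, Clock, Nr1d2 and Dbp held no match for any of these motifs, and neither did that of Npas2. Yet Nr1d2 and Npas2 also varied with Dbp (r of 0.92 and -0.96, diet means removed). A match describes letters in this window only.

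The libraries held 64.8 to 94.1 M estimated counts, and the member with the fewest, Per3 in normal-salt library 1, still had 284. All 9 principal cell and all 10 intercalated cell markers passed the filter of at least 1 CPM (counts scaled to the same total in each library) in at least 4 libraries, with the water channel gene Aqp2 of principal cells at 7580 to 18000 CPM. Summed thick ascending limb markers, from the neighbouring segment, were at 2430, 1095, 762.5 and 1820 CPM in normal-salt libraries 1, 2, 3 and 6 and at 220.2, 252.6, 583.5 and 3036 CPM in high-salt libraries 2, 3, 4 and 6. In bulk RNA, fewer cells of a type and less RNA per cell cannot be told apart.

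All 10 members passed the filter. Per transcript length, in TPM (abundance scaled for transcript length and library total), Nr1d1 was the highest member, at 166.1 ± 61.93 (SD over all 8 libraries), and it was the highest in each library. Dbp followed at 64.82 ± 67.7 TPM, Nr1d2 at 32.91 ± 14.56, Clock at 19.61 ± 3.647, Per1 at 18.58 ± 9.673 and Arntl at 14.35 ± 4.039. The lowest were Cry2 at 6.831 ± 2.498 TPM, Per2 at 6.248 ± 3.913, Cry1 at 4.573 ± 0.7876 and Per3 at 3.344 ± 2.515. Of the neighbours in this order, Arntl and Cry2 were the only ones whose ranges of mean ± SD did not overlap.

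The activators behaved differently from each other. Arntl (chromosome 7, 113207465 to 113314126, plus strand, GENCODE M21 on mm10) was at 32.8, 34.1, 30.55 and 13.62 CPM in normal-salt libraries 1, 2, 3 and 6 and at 22.75, 25.03, 20.15 and 16.65 CPM in high-salt libraries 2, 3, 4 and 6. Library 6 was the lowest of each diet, and the diets overlapped through normal-salt library 6. Clock (chromosome 5, 76209868 to 76304792, minus strand) was at 81.51, 92.16, 89.01 and 106.8 CPM under normal salt and at 93.41, 98.31, 77.97 and 92.01 CPM under high salt. In CPM it was the steadiest member, with a highest value 1.37 times the lowest over all 8 libraries. In TPM it was not, ranging from 12.21 to 24.29, relatively more than Cry1 (3.481 to 5.751).

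Among the repressors, the Per genes ranged most. Per1 (chromosome 11, 69095217 to 69109960, plus strand), which also responds to glucocorticoids and cyclic AMP, was at 34.28, 58.12, 59.08 and 99.53 CPM under normal salt and at 22.64, 47.36, 28.04 and 65.88 CPM under high salt. Per2 (chromosome 1, 91415982 to 91459324, minus strand) was at 9.502, 18.33, 19.2 and 56.21 CPM under normal salt and at 21.77, 17.75, 19.63 and 25.13 CPM under high salt. Per3 (chromosome 4, 151003652 to 151044665, minus strand) was at 4.381, 6.769, 7.701 and 30.12 CPM and at 7.912, 5.536, 5.924 and 14.37 CPM. In all 3 Per genes library 6 was the highest of each diet and normal-salt library 1 the lowest of its diet.

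The cryptochromes, the partners of PER in repression, moved less. Cry1 (chromosome 10, 85131700 to 85185064, minus strand) was at 8.099, 9.814, 6.224 and 7.838 CPM under normal salt and at 7.661, 9.715, 6.629 and 5.984 CPM under high salt. Cry2 (chromosome 2, 92403646 to 92434043, minus strand) was at 10.52, 12.19, 16.78 and 27.81 CPM and at 14.36, 19.14, 14.57 and 18.05 CPM. Library 6 was the highest for Cry2 under normal salt, while under high salt library 3 was the highest for both genes.

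The Rev-erb genes and Dbp had the highest levels in library 6 of each diet. Nr1d1 (chromosome 11, 98767932 to 98775333, minus strand) was at 166.2, 215.5, 205.2 and 457.4 CPM under normal salt and at 311.0, 200.9, 324.2 and 331.0 CPM under high salt. Nr1d2 (chromosome 14, 18204054 to 18239127, minus strand) was at 40.54, 56.87, 69.33 and 137.9 CPM and at 75.85, 51.53, 74.51 and 109.9 CPM. Dbp (chromosome 7, 45705088 to 45710203, plus strand), the output transcription factor, was at 24.34, 14.72, 36.36 and 215.9 CPM under normal salt and at 47.39, 26.19, 44.91 and 124.5 CPM under high salt. Dbp spanned 14.7-fold within normal salt and 4.75-fold within high salt. Exons of Dbp overlap those of Sphk2 on the opposite strand over 539 bases, and those of Nr1d1 overlap Thra over 263 bases. The library kit was stranded but the strand setting of the counting is not given in the sources used here. Sphk2 stayed between 75.4 and 83.2 CPM and Thra between 136 and 189 CPM in the 8 libraries.

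**Figure D1:**
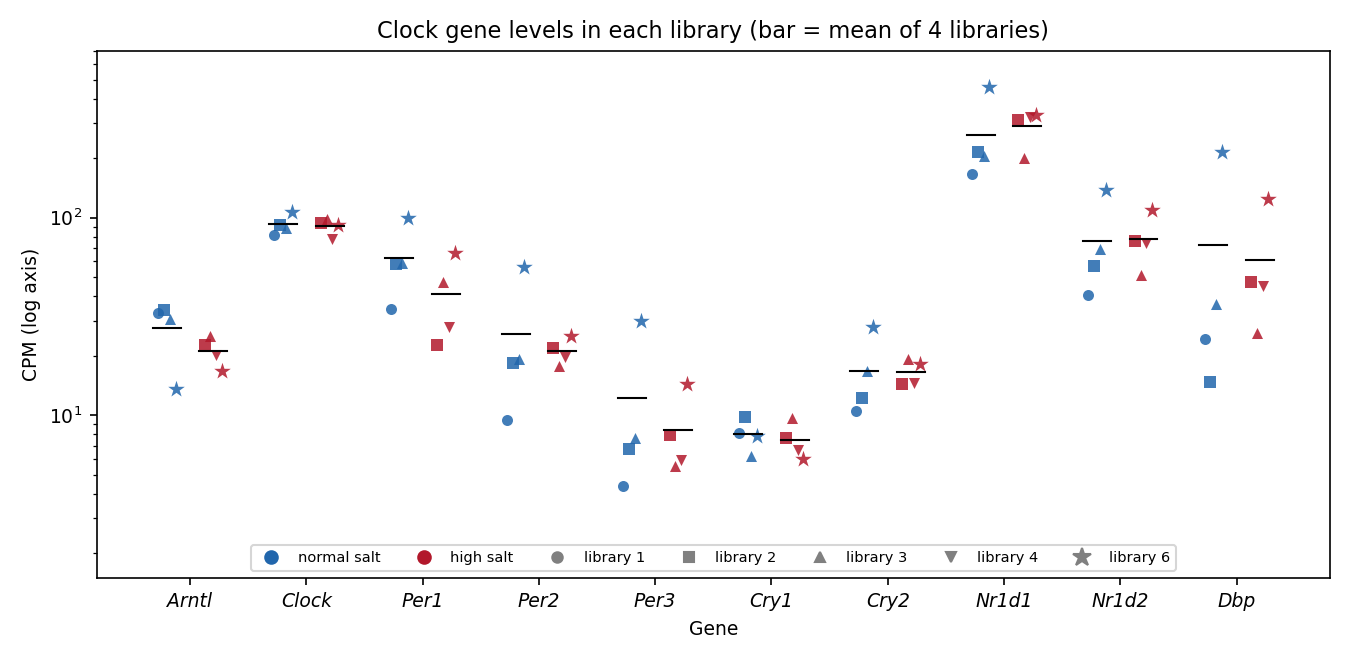
CPM of the 10 clock genes (log axis) in each library, with normal salt in blue and high salt in red, 1 symbol per library number and a bar at the mean of 4 libraries. The stars of library 6 lie at the top of each diet for Per1, Per2, Per3, Nr1d1, Nr1d2 and Dbp and at the bottom for Arntl.

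The diets were compared to ask which transcripts of this segment differ with salt intake. By limma 0 of 10 members had an adjusted p under 0.05, against 0.0821% of the 13401 genes tested (0.0298% with a higher and 0.0522% with a lower high-salt level). Unadjusted, 0 of 10 members and 10.3% of all genes were under 0.05. In 0 of 10 did the 4 libraries of one diet lie apart from the 4 of the other, against 6.4% of all genes. Means on the log2(CPM + 1) scale were higher under high salt in 4 members and lower in 6, against 52.8% higher among all genes, and the median log2 fold change was -0.02 for the members and 0.01 for all genes.

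Per1 had the smallest p of the 10, with 62.75 ± 27.07 CPM under normal salt and 40.98 ± 19.7 CPM under high salt (SD, n = 4 each), a log2 fold change of -0.63 (95% interval -1.41 to 0.16) and a limma adjusted p of 0.592. Arntl had 27.77 ± 9.544 and 21.15 ± 3.601 CPM (log2 fold change -0.31, interval -0.88 to 0.26, limma adjusted p = 0.739). Dbp had 72.84 ± 95.8 and 60.75 ± 43.55 CPM, a lower linear mean under high salt, but a log2 fold change of 0.31 with an interval from -1.27 to 1.89. The interval of Clock, -0.27 to 0.21, was the narrowest of the 10. Those of Per2 (-0.89 to 0.87) and Per3 (-1.27 to 0.84) leave room for differences in either direction, while that of Cry1 (-0.48 to 0.30) was the second narrowest. Without normal-salt library 6 the log2 fold change of Arntl was -0.61 (limma unadjusted p = 0.00176, adjusted p = 0.221). Nr1d1 then had 0.56 in place of 0.25 (limma unadjusted p = 0.0118, adjusted p = 0.374), and Dbp 1.09 in place of 0.31 (limma unadjusted p = 0.0402, adjusted p = 0.514). With both libraries numbered 6 left out, a choice made after seeing the values, Arntl had -0.51 (limma unadjusted p = 0.00322, adjusted p = 0.271). Nr1d1 had 0.49 there (limma unadjusted p = 0.0325, adjusted p = 0.508) and Dbp 0.67 (limma unadjusted p = 0.068, adjusted p = 0.587).

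**Figure D2:**
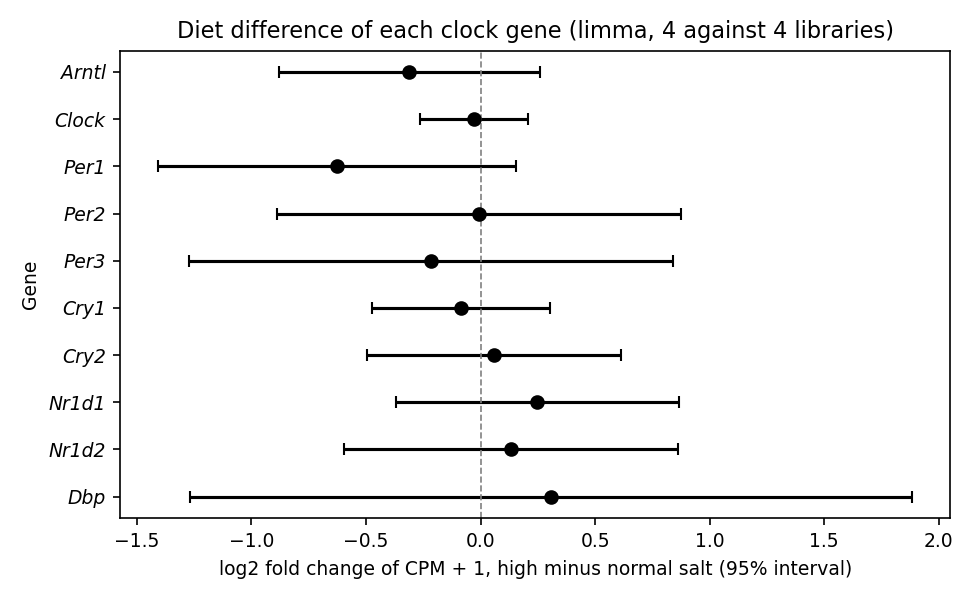
The log2 fold change of each clock gene on the log2(CPM + 1) scale, high minus normal salt, with its 95% interval from limma (4 libraries per diet). All 10 intervals include 0, from the narrow one of Clock to the wide one of Dbp.

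Most members differed widely between mice of the same diet. The within-diet SD of log2(CPM + 1) had a median of 0.56 over the members and 0.20 over all genes tested. It was 1.34 for Dbp, higher than in 99.8% of genes, 0.88 for Per3 (98.9%), 0.73 for Per2 (98.2%), 0.65 for Per1 (97.4%), 0.61 for Nr1d2 (96.8%) and 0.51 for Nr1d1 (94.9%). Arntl (0.46, 93.1%) and Cry2 (0.44, 92.2%) made 8 of 10 members above the 90th percentile. Cry1 (0.25, 67.0%) and Clock (0.15, 30.0%) were not among them. Without the 2 libraries numbered 6, a choice made after seeing the values, 2 members were above it, Dbp (0.55, 96.5%) and Per1 (0.49), and Arntl had an SD of 0.12 (21.3%). Without normal-salt library 6 alone there were 4.

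**Figure D3:**
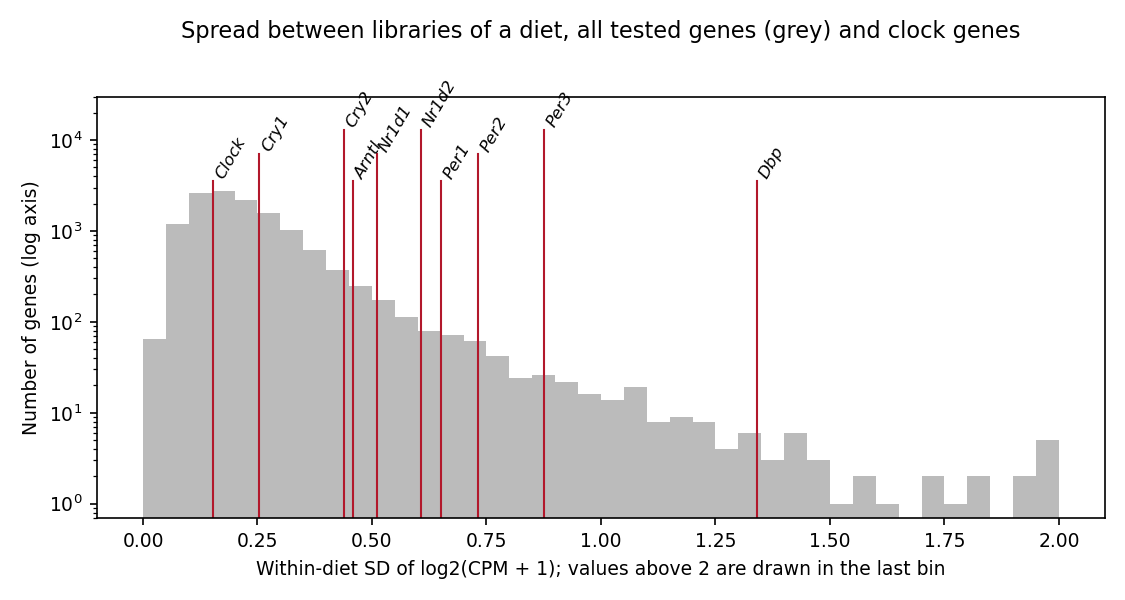
Distribution of the within-diet SD of log2(CPM + 1) over the 13401 genes tested (grey, number of genes on a log axis), with a red line at each clock gene. Clock and Cry1 sit in the bulk of genes, and Dbp, at 1.34, far out in the tail.

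In both diets the library numbered 6 lay at the same end for several members, though under high salt not always by much. There Nr1d1 was at 331.0 CPM in library 6 and 324.2 CPM in library 4. Library 6 was the highest of its diet in both diets for 6 members (Per1, Per2, Per3, Nr1d1, Nr1d2 and Dbp), where 8.13% of all genes tested were, and the lowest in both diets for Arntl, where 5.65% were. The ratio of Dbp to Arntl in TPM was 23.4 in normal-salt library 6 and 12.0 in high-salt library 6. In the other libraries it was 1.26, 0.825 and 1.86 under normal salt (1, 2 and 3) and 3.54, 1.53 and 3.84 under high salt (2, 3 and 4). Taken over the 10 members, the deviations of the 2 libraries numbered 6 from their diet means had r = 0.868, and over all genes tested r = 0.00201, each a description across genes, which are not independent. Libraries of unlike number also had large r over the members. It was 0.8 for normal-salt library 2 with high-salt library 3, and -0.831 for normal-salt library 2 with high-salt library 6. The labels do not say what the column numbers mean. Whether the hour of collection differed between libraries was not tested, since no label gives it.

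Over the 8 libraries 7 of the 10 members were in correlated pairs, with Arntl opposed to the other 6. All 45 pairs were tested with exact two-sided permutation of the pairings, adjusted by Benjamini-Hochberg over the 45 pairs, and 18 passed by Pearson's r, 12 positive and 6 negative, while 10 passed by Spearman's rho. All 6 negative pairs involved Arntl. Arntl against Dbp had r = -0.94 (exact permutation p = 0.00067, adjusted 0.00502) and rho = -0.95 (exact permutation p = 0.00114, adjusted 0.0126). With the 2 libraries farthest from the median of Arntl left out r was -0.85, and with the diet means removed -0.96. Arntl against Nr1d1, which encodes its repressor, had r = -0.92 (exact permutation p = 0.00159, adjusted 0.0102) and rho = -0.83 (exact permutation p = 0.0154, adjusted 0.0532), and r was -0.90 without the 2 farthest.

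Among the positive pairs Per2 with Nr1d2 had the smallest p and the highest rho, with r = 0.92 (exact permutation p = 2.48e-05, the smallest that 8 libraries allow, adjusted 0.00112) and rho = 1.0 (exact permutation p = 4.96e-05, adjusted 0.00223). Without the 2 libraries farthest from the median of Per2 r was 0.96, while that of Per2 with Cry2 was 0.20 in place of 0.88. Per3 against Dbp had r = 0.90 (exact permutation p = 0.00466, adjusted 0.0175) and rho = 0.81 (exact permutation p = 0.0218, adjusted 0.07), but r was 0.33 without the 2 farthest, so this relation rests on those libraries, which were the ones numbered 6. Per1 passed with 0 partners: its r with Dbp was 0.47 (exact permutation p = 0.246, adjusted 0.327) and its rho 0.33 (exact permutation p = 0.428, adjusted 0.494). Without the 2 farthest libraries that r was 0.20, and without the libraries numbered 6 it was -0.67. Clock and Cry1 also passed with 0 partners.

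Leaving out both libraries numbered 6 kept the sign of r in all 18 pairs, with 7 of them beyond 0.7 in size, among them Arntl with Dbp (-0.78), Arntl with Nr1d1 (-0.83), Per2 with Per3 (0.85) and Nr1d1 with Nr1d2 (0.86). The rest were weaker, among them Arntl with Per3 (-0.16), Per3 with Dbp (0.33) and Per3 with Cry2 (0.38). After adjustment 0 pairs passed the exact permutation test over these 6 libraries, 5 having an unadjusted p under 0.05, where the smallest p possible is 0.00139. With the diet means removed and libraries exchanged only within a diet, 4 pairs passed: Arntl with Dbp, Per2 with Per3, Per2 with Nr1d2 and Per3 with Nr1d2. Each diet alone has 4 libraries, too few for a correlation.

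**Figure D4:**
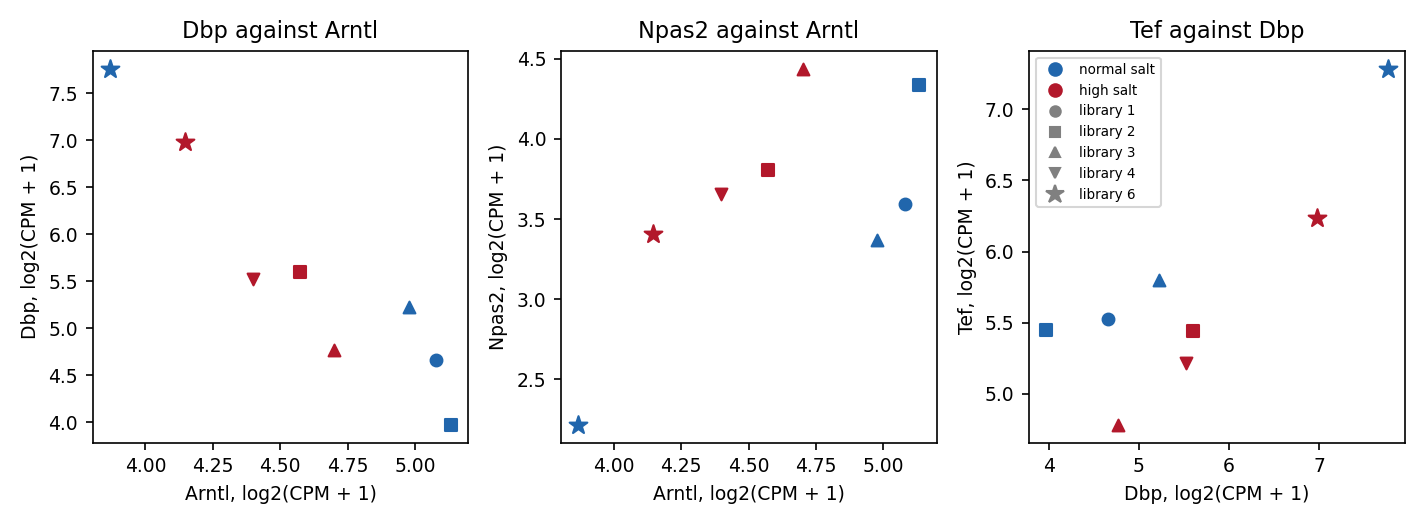
log2(CPM + 1) of Dbp against Arntl, of Npas2 against Arntl and of Tef against Dbp, 1 point per library, with normal salt in blue, high salt in red and a star for library 6. Dbp runs down and Npas2 up as Arntl rises, and the stars lie at 1 end of each panel.

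Several other transcription factors of the loop varied along with the members. With the diet means removed, Tef, the relative of Dbp, had r = 0.98 with Dbp over the 8 libraries, the highest of 10322 genes with a mean of at least 5 CPM. It was at 45, 42.6, 54.7 and 155 CPM under normal salt and at 42.4, 26.5, 36.2 and 74.4 CPM under high salt. Hlf, the third factor of that family, had r = 0.95 with Dbp and -0.95 with Arntl, at 1.06, 1.42, 1.68 and 10.1 CPM and at 2.37, 0.492, 2.21 and 4.74 CPM. Npas2, the alternative partner of BMAL1, went the other way (r = 0.92 with Arntl, -0.96 with Dbp), at 11.1, 19.2, 9.34 and 3.64 CPM and at 13.0, 20.7, 11.6 and 9.6 CPM. Nfil3, a repressor at D-boxes, had r = -0.78 with Dbp and 0.66 with Arntl. Bhlhe41, a repressor at E-boxes, had r = 0.72 with Dbp, while its relative Bhlhe40 had 0.17. Rora (0.21) and Rorb (-0.08), which encode activators at ROR elements, followed Dbp less. The r values of these factors are descriptions over 8 libraries, of which the 2 numbered 6 lay at the ends of their diets for several members.

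Of the 11 loop factors listed, 9 passed the filter and 0 changed with diet by limma (0 at an unadjusted p under 0.05), with a median log2 fold change of 0.09. The largest was Tef, with 74.4 ± 54.2 and 44.9 ± 20.7 CPM and a log2 fold change of -0.60 (SE 0.40, limma adjusted p = 0.669). Arntl2 and Ciart were below the filter.

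**Figure D5:**
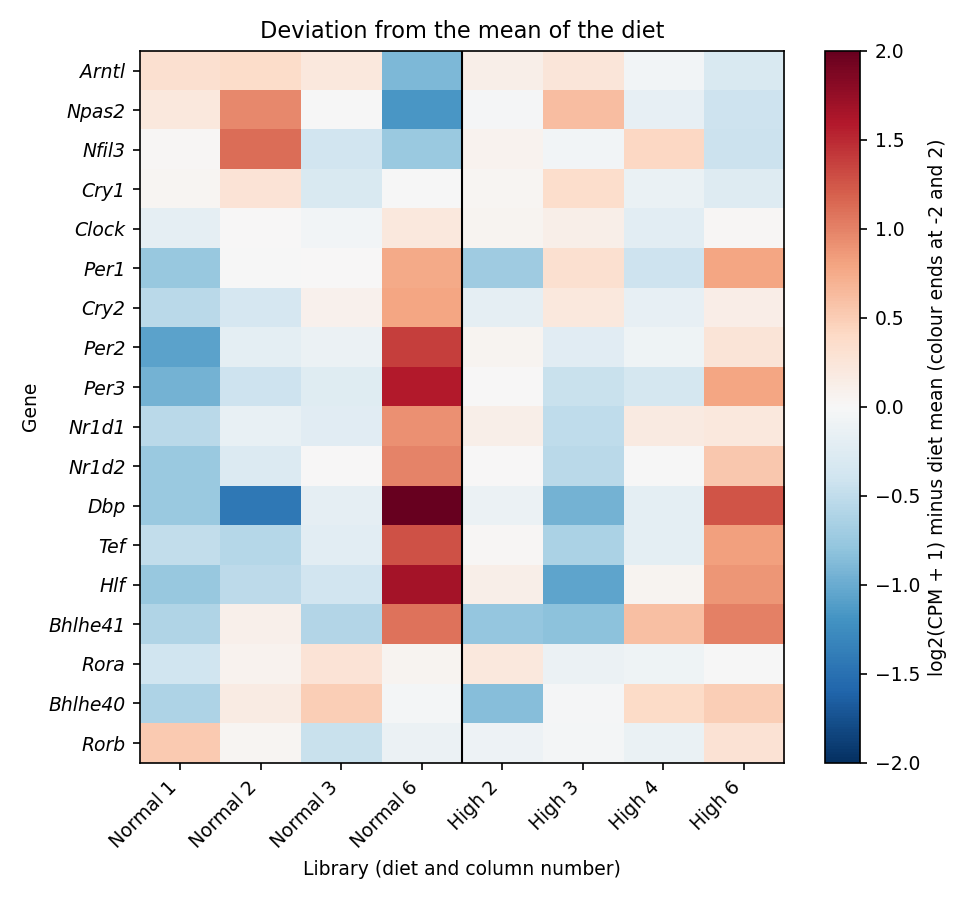
Deviation of log2(CPM + 1) from the mean of the diet (colour, red above and blue below) for the 10 clock genes and 8 other loop factors above the filter, in 4 normal-salt and 4 high-salt libraries. Library 6 of each diet is red for Per1, Per2, Per3, Nr1d1, Nr1d2, Dbp, Tef, Hlf and Bhlhe41 and blue for Arntl, Npas2 and Nfil3.

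Genes outside the loop had values of r as high. With Arntl the highest r, diet means removed, were those of Ndrg4 (0.988), Golt1a (0.962), Naxd (0.959), Cdc42 (0.954) and Tufm (0.953), and the lowest those of Adgrg6 (-0.993), Rasgrf2 (-0.976), Cdkn1a (-0.965), Dnajb9 (-0.965) and Asph (-0.957). With Dbp, Dnajb9 (0.972), Abi2 (0.97) and Ube2j1 (0.967) were among the highest after Tef, and Golt1a (-0.99), Anxa6 (-0.985), Dcdc2a (-0.967) and Ppard (-0.966) among the lowest. A high r here says nothing of the size of a change: Cdc42, a small GTPase gene, was at 364 to 459 CPM in all 8 libraries, against 14.72 to 215.9 CPM for Dbp. Dbp was the 6th lowest of 13400 genes in r with Arntl, Per3 the 16th, Nr1d1 the 33rd and Nr1d2 the 37th.

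Of 13 modifiers of clock proteins listed and tested, 0 changed by limma (1 lower at an unadjusted p under 0.05), with a median log2 fold change of 0.00. Their median within-diet SD was 0.132, with Usp2 the widest at 0.376. Btrc, a ubiquitin ligase subunit for PER, had 26.1 ± 3.44 and 21.4 ± 1.58 CPM (log2 fold change -0.27, limma adjusted p = 0.446). Csnk1d and Csnk1e, the kinases of PER, had log2 fold changes of 0.02 and 0.03. The remaining genes named by the smallest p were Wdr5 (-0.26, limma adjusted p = 0.526) and Usp2, a rhythmic deubiquitinase (-0.27, limma adjusted p = 0.727).

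Among 11 tested kidney genes linked to the clock, 1 of 12 listed being below the filter, Scnn1a fell from 1200 ± 135 to 485 ± 125 CPM (log2 fold change -1.33, limma adjusted p = 0.026) and 0 rose, with a median log2 fold change of -0.08. At an unadjusted p under 0.05 there were 4 lower and 1 higher, against 10.3% of all genes in either direction. Of all genes 0.0821% were called. With no filter, without normal-salt library 3 or without high-salt library 4, 0 of all genes were called, so Scnn1a was not called there. Scnn1a had r = 0.28 with Dbp and -0.09 with Arntl, diet means removed.

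Of 12 glucocorticoid response genes 0 changed by limma, with a median log2 fold change of -0.03. At an unadjusted p under 0.05 were 1 higher and 3 lower, against 10.3% of all genes in either direction. Sgk1 had 360 ± 172 and 111 ± 35.9 CPM (log2 fold change -1.59, limma adjusted p = 0.124), Zbtb16 -1.62 (limma adjusted p = 0.405) and Tsc22d3 -0.27 (limma adjusted p = 0.423). With Dbp these had r of -0.34, 0.56 and -0.27, diet means removed.

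Immediate early genes, which enzyme digestion can raise and which share inputs with Per1 and Per2, summed to 7199, 12050, 8011 and 20250 CPM in normal-salt libraries 1, 2, 3 and 6 and to 9194, 10490, 9210 and 10950 CPM in high-salt libraries 2, 3, 4 and 6. Normal-salt library 6 was thus the highest of the 8 in these genes as in Per1 and Per2. High-salt library 6 was the highest of its diet, close to high-salt library 3, whose Dbp was the lowest of that diet. The second highest, normal-salt library 2, had the lowest Dbp of all. Of the 22 tested genes 20 had a positive r with Dbp and 21 a negative r with Arntl, diet means removed. These genes are not independent of each other, and the share of all genes with these signs was not counted. The highest with Dbp was Nr4a1, an orphan nuclear receptor gene (0.82, and -0.90 with Arntl), and Fos had 0.66 and -0.79. Of 22 tested, 0 changed with diet by limma (1 higher at an unadjusted p under 0.05, Myc, with 7.08 ± 3.68 and 14.7 ± 2.92 CPM), and the median log2 fold change was 0.02. The part of this response in the levels of the clock genes was not tested.

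Markers of the thick ascending limb were higher in library 6 than in the other libraries of high salt. Under normal salt they summed to 2430 CPM in library 1, which had the second lowest Dbp of that diet. In normal-salt library 6, with the highest Dbp, they summed to 1820 CPM, the second highest of that diet. All 13 were above the filter, all 13 had a lower mean under high salt (median log2 fold change -0.87) and 0 changed by limma (0 at an unadjusted p under 0.05). Summed markers of proximal tubule were at 2.57 to 88.14 CPM under normal salt and 5.989 to 109.7 CPM under high salt, of endothelium at 237.6 to 351.1 and 215.8 to 347.1 CPM, of fibroblasts and pericytes at 74.25 to 323 and 84.74 to 194.4 CPM, and of macrophages at 36.52 to 85.9 and 30.4 to 53.95 CPM. Of the marker lists of these cells and of the duct's own, 0 genes changed by limma. Of the 9 proximal tubule markers 2 passed the filter and 1 was at 0 in all libraries. The part of these cells in the spread of the clock genes was not tested.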

How the data were processed

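RNA of outer medullary collecting ducts was compared between 4 normal-salt and 4 high-salt libraries. The build was mm10 and the reads went through Trimmomatic and FastQC, per the submitters' processing notes. Which aligner, counter, strand setting and annotation the authors chose is not given in the sources used here. Of the tables deposited by the authors, that named for CPM held log2 values with a shared floor of -5.29. The other deposited table held TPM. Linear values had been assumed when the test was planned, so the log2 scale was undone, the floor value subtracted and each library rescaled to CPM. The smallest common CPM step gave each library's total. Below 200 counts, 85.2% to 86.8% of values were whole within 0.02, so they were estimated counts and no count model was run.

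Genes with at least 1 CPM in at least 4 libraries (13401) entered limma 3.58.1 (R 4.3.3) as log2(CPM + 1) values (trend, two-sided, Benjamini-Hochberg over all genes kept). This scale understates changes of low genes. The test was checked on simulated data. Genes simulated to differ by a factor of 1.5 were recovered in 12.7% of cases. The share was 77.3% at a factor of 2, and 100% at factors of 3 and 4. Recovery at the spread of the clock genes (median within-diet SD 0.56, against 0.20 for all genes) was not tested. A result of 0 members called therefore leaves room for differences, and for the members with a wide spread not only for small ones. The intervals of the log2 fold change ran from -1.27 to 1.89 for Dbp, -1.41 to 0.16 for Per1 and -1.27 to 0.84 for Per3. That of Clock was the narrowest. Percentiles, r with diet means removed and list counts are descriptions. All 10 members were named, along with every loop factor above the filter and, of each other list of genes outside the marker sets, called genes or up to 3 with the smallest p. Also named were the 5 highest and 5 lowest genes in r with Arntl and with Dbp, leaving out predicted genes. A few genes that this rule names are not reported here. The members and lists were chosen with earlier results of these data known. Each library is 1 mouse. Alternatives covered pseudocount, filter, scaling, TPM, moderation, library weights, a replicate block and leaving out libraries. Positions are from GENCODE M21 and promoters from RefSeq.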

Additional observations from a re-analysis of the deposited data

Results flagged for a closer look

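In groups of 4 libraries, the gap of the highest or lowest library to its neighbour was set against the range of the group on the log2(CPM + 1) scale, and 2 of 20 groups of the clock genes passed Dixon's 95% limit. Chance alone passes about 1 in 20 groups. Arntl in normal-salt library 6 (13.62 CPM, with 30.55 to 34.1 CPM in the other 3) had a gap of 0.878 of the range. Nr1d1 in high-salt library 3 (200.9 CPM, with 311.0 to 331.0 CPM in the other 3) had 0.875.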

How the results depend on the processing

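The count of 0 members called by limma held under all alternatives run, with 0 to 3 members at an unadjusted p under 0.05. Over all genes 11 were called, against 0 without a filter (1933 at an unadjusted p under 0.05), 5 with TPM, 22 with robust moderation, 129 with library weights, 7 without the 2 libraries numbered 6 and 0 to 49 with each library left out, 49 without normal-salt library 1. The count was 0 when library 3 of normal salt (1224 with an unadjusted p under 0.05) or library 4 of high salt (908) was left out. The cause was not tested. A replicate block by the column numbers shared between diets (2, 3 and 6) called 38 genes and 0 members, with Per1 nearest (log2 fold change -0.74, limma adjusted p = 0.142). Same-numbered libraries deviated together over all genes with r of 0.208, 0.287 and 0.00201 for 2, 3 and 6, and normal-salt library 2 correlated best with high-salt library 4 (0.28), so the numbers were not taken as pairs.

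Of 190 values of the members' log2 fold changes under alternatives 166 kept their sign and 24 did not. The sign turned for Per2 with a pseudocount of 0.1 (0.0039), for Clock (0.10) and Cry1 (0.023) with TPM, for Cry2 with library weights (-0.019), for Cry2 (-0.066) and Nr1d2 (-0.11) with the replicate block, and for Clock (0.033), Per2 (0.37) and Per3 (0.050) without the libraries numbered 6. With each library left out in turn, Clock ranged from -0.086 to 0.043, Cry1 from -0.20 to 0.0071, Cry2 from -0.12 to 0.32, Dbp from -0.17 to 1.09, Nr1d2 from -0.12 to 0.46, Per2 from -0.36 to 0.45 and Per3 from -0.53 to 0.31. Per1 (-0.89 to -0.37), Arntl (-0.61 to -0.19) and Nr1d1 (0.070 to 0.56) kept theirs.

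The 18 correlated pairs were 11 with TPM, 4 with the diet means removed, 0 without the libraries numbered 6 (exact permutation test, 5 at an unadjusted p under 0.05) and 0 to 22 with 1 library left out, 0 being without normal-salt library 6 (11 at an unadjusted p under 0.05) and 7 without high-salt library 6. The 8 members above the 90th percentile of within-diet spread were 5 with a pseudocount of 0.1 and 6 with TPM. Their count was 2 without the libraries numbered 6 and 4 to 8 with each library left out. This count, and leaving out both libraries numbered 6, were chosen after seeing the data. Depth was no limit for the members, all at 284 estimated counts or more.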

Other observations

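Of 14 clock output genes known from many tissues 13 were tested and 0 changed with diet by limma, with a median log2 fold change of 0.12. At an unadjusted p under 0.05 were 1 higher and 2 lower, against 10.3% of all genes in either direction. The median within-diet SD of these genes was 0.264. Noct, the rhythmic deadenylase-like protein nocturnin, had 76.7 ± 4.38 and 58.6 ± 9.64 CPM (log2 fold change -0.40, limma adjusted p = 0.248) and r = -0.03 with Dbp, diet means removed. Tspan4 (-0.55, limma adjusted p = 0.483) and the cell cycle inhibitor Cdkn1a (0.34, limma adjusted p = 0.481) had r of 0.91 and 0.96 with Dbp. Of 11 heat shock and cold response genes 0 changed by limma (1 higher at an unadjusted p under 0.05, the chaperone Hsph1, 0.57, limma adjusted p = 0.209). The cold-inducible Cirbp and Rbm3 had r of -0.34 and -0.29 with Dbp.

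The number of TPM per CPM of a gene was not constant between libraries. For Clock it was 0.15 in normal-salt library 1 and up to 0.228 in normal-salt library 2, and for Cry1 0.539 in normal-salt library 1 and 0.83 in high-salt library 6. It was lowest in normal-salt library 1 for 9 of 10 members, Per3 being the exception.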
